A study of Mus musculus with 3 samples.

Results

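The collagens that build the thin fibrils of hyaline cartilage were followed through 7 genes: Col2a1 for collagen II, Col9a1, Col9a2 and Col9a3 for collagen IX, Col11a1 and Col11a2 for collagen XI, and Col27a1 for collagen XXVII. They were chosen by gene symbol, and all 7 were found among the 32285 genes of the files. Single-cell RNA was counted in mandibular condyles, the jaw side of the jaw joint, of wild-type (WT) C57BL6 mice. The stages were E16.5 (embryonic day 16.5), P0 (the day of birth) and 13w (adults aged 13 weeks). Condyles of 7 to 20 mice were pooled at each age, live cells were sorted, and each pool gave 1 library read from the 3′ end of the RNA. Every difference between stages is therefore a difference between 2 pooled libraries with no replicate check. Intervals are 95% and cover counting error only, not animals, pools or library preparation.

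Collagen II is the main fibril protein of cartilage and a homotrimer of the Col2a1 product. Collagen XI lies in the core of the same fibril, where it limits fibril width; its chains are the products of Col11a1, Col11a2 and a modified Col2a1 product. Collagen IX, a heterotrimer of the products of Col9a1, Col9a2 and Col9a3, is fixed to the fibril surface and links it to other matrix. Collagen XXVII is a further fibril-forming collagen of cartilage. Condylar cartilage lies below a fibrous surface rich in collagen I, and its deepest chondrocytes enlarge and make collagen X, from Col10a1, before bone replaces them.

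After cells under 500 genes or above 10% mitochondrial counts had been set aside, there were 4562 cells at E16.5, 3999 cells at P0 and 8028 cells at 13w. Their median depth was 17401.5, 17954 and 11010 UMIs (molecules counted) per cell. Cells with at least 10 Col10a1 UMIs per 10000 are called Col10a1-high here, and all other kept cells the rest. There were 252 Col10a1-high cells at E16.5, 566 such cells at P0 and 283 of them at 13w, or 5.52%, 14.2% and 3.53% of kept cells. They were deeper than the rest, with medians of 46464 against 16552.5 UMIs at E16.5, 35815.5 against 15507 at P0 and 31110 against 10722 at 13w. The limit cuts a continuous range of Col10a1. Col2a1 made up 16424 of every 1e6 UMIs in the 65 E16.5 cells just inside it, with 10 to under 20 Col10a1 UMIs per 10000, and 16136 in the 61 cells just outside, with 5 to under 10. The same bands held 103 and 156 cells at P0 and 53 and 72 cells at 13w. Col2a1 made up 25815 and 22356 of every 1e6 UMIs in them at P0, and 49052 and 52907 at 13w. Clusters with blood, vessel or muscle identity held 394, 121 and 430 of the kept cells at E16.5, P0 and 13w, and all others are called skeletal. The libraries shared few kept cell barcodes, 14 between P0 and E16.5, 8 between 13w and P0 and 11 between 13w and E16.5.

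The start regions of these genes are shown for the chains that are compared as partners in one protein, Col9a1 with Col9a2 and Col11a1 with Col11a2. RefSeq windows on build GRCm38.p6 were available for 5 of the 7 genes, and each line gives the 250 bases before the start on the plus strand. Col9a1 has a first start (chr1:24177360-24177609) and a downstream start (chr1:24194953-24195202); in cartilage the first is known to give the long chain. The others are Col9a2 (chr4:121039316-121039565), Col11a1 (chr3:114030290-114030539) and Col11a2 (chr17:34038888-34039137). Capitals mark the letters TATAAA or GGGCGG on either strand.
Col9a1 first start: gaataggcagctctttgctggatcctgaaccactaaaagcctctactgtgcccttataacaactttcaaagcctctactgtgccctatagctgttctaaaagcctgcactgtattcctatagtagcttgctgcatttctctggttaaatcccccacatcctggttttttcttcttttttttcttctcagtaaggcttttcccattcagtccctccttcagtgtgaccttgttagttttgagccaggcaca
Col9a1 downstream start: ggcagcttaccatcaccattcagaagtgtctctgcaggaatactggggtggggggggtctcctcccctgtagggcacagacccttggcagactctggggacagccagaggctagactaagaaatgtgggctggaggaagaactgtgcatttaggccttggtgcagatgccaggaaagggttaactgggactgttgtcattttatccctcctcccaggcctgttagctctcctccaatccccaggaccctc
Col9a2: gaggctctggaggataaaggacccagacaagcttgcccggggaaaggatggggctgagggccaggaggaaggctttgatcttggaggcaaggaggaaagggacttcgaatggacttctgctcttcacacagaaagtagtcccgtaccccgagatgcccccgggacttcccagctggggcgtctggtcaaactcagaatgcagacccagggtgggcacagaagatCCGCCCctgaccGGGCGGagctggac
Col11a1: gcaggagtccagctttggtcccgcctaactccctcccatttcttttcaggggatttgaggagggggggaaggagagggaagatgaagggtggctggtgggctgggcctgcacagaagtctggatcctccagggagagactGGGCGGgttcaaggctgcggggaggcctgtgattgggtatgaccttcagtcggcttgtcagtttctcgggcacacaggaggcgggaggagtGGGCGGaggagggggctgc
Col11a2: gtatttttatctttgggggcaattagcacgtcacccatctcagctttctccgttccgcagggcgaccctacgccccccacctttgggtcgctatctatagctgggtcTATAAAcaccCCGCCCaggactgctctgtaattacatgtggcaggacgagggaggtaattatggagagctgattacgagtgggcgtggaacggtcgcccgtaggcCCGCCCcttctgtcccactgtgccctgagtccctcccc

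Neither Col9a1 window held GGGCGG, which was present in 32.7% of all 32851 RefSeq windows of this length, while the Col9a2, Col11a1 and Col11a2 windows each held it 2 times. The letters TATAAA occurred in the Col11a2 window and in 12.4% of all windows. AACAAT and ACAAAG, letters of SOX-type motifs, were in none of the printed windows and in 9.42% and 16.5% of all windows. Col27a1, whose window is not printed, held GGGCGG 1 time and none of the other 3 strings. A string match in these windows is a description of their letters only. Counts from the 3′ end cannot tell transcripts from different starts, nor the long and short forms of Col2a1, apart.

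Collagen II dominated the group at every stage. Over all kept cells Col2a1 stood at 4147 counts per 1e6 (CPM) at E16.5, 12847 CPM at P0 and 17378 CPM at 13w, and ranked 21st, 3rd and 5th among all genes. A UMI is counted once per molecule, so these levels need no scaling by gene length, although capture may differ between genes. Col11a1, the more abundant collagen XI chain, followed with 1935, 4677 and 1874 CPM. Col9a3 led the collagen IX chains with 725, 1959 and 1194 CPM. Col9a1 had 567, 1323 and 479 CPM, and Col9a2 had 471, 1139 and 754 CPM. Col11a2, the minor collagen XI chain, had 337, 987 and 504 CPM, and Col27a1 had 248, 529 and 489 CPM. The order of the 7 was the same at E16.5 and P0. At 13w Col9a1 dropped to the last place, next to Col27a1, whose counting interval of 485 to 493 CPM did not meet that of Col9a1, 475 to 483. Together the 7 genes took 0.843% of all UMIs at E16.5, 2.35% of those at P0 and 2.27% of those at 13w.

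**Figure D1:**
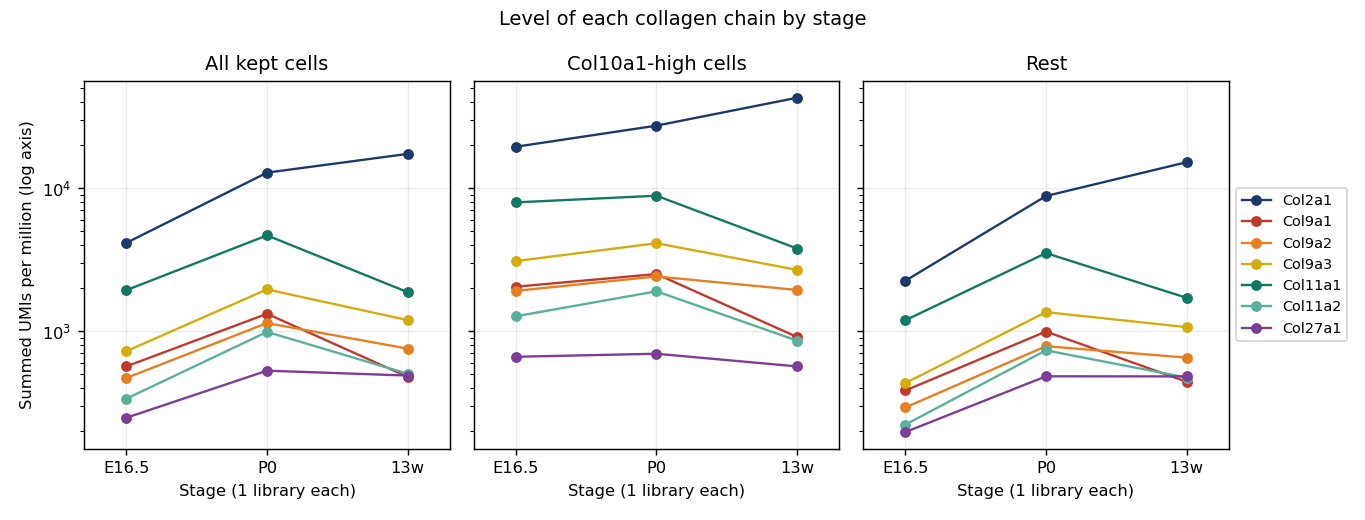
Level of each of the 7 chains in CPM on a log axis, for E16.5, P0 and 13w libraries, in all kept cells (left), Col10a1-high cells (middle) and the rest (right); each point is 1 summed library. Col2a1 climbs through all 3 stages in each panel, while Col9a1 and Col11a1 are lower at 13w than at P0.

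At birth all 7 chains were higher than at E16.5 when all kept cells were summed. Col2a1 had 12847 CPM at P0 and 4147 at E16.5, a log2 ratio of 1.63 (1.63 to 1.64). The log2 ratios of the other members lay between 1.09 for Col27a1 and 1.55 for Col11a2. A gene is called higher or lower here when the ratio is at least 2-fold and its counting interval excludes 1. By that rule 7 of 7 members were higher at P0, against 5.31% of the 8261 measured genes, those reaching 10 CPM in either library. None was lower, against 8.72%. The members' median log2 ratio was 1.28 and that of all measured genes was -0.13.

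Within the Col10a1-high cells the same comparison gave no call. Col2a1 had 27381 CPM at P0 and 19496 at E16.5, a log2 ratio of 0.49. Col11a1 had 8857 and 7955 CPM, a log2 ratio of 0.15, and Col27a1 had 695 and 662 CPM, a log2 ratio of 0.07. The highest of the 7 was Col11a2 at 0.58, with 1900 CPM at P0 and 1271 at E16.5. In these cells 6.07% of measured genes were called higher and 4.02% lower. In the rest, all 7 were called higher, Col2a1 with 8814 CPM at P0 and 2251 at E16.5 (log2 1.97) and Col11a1 with 3516 and 1192 CPM (log2 1.56), where 5.62% of measured genes were higher and 8.37% lower.

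The rest is a mixture, and its makeup by Acan, the gene of the cartilage proteoglycan aggrecan, differed sharply between the libraries. Cells with at least 5 Acan UMIs per 10000 were 14.5% of the rest at E16.5 (623 cells), 61.3% at P0 (2105 cells) and 63.0% at 13w (4883 cells). They were deeper than the other cells of the rest, with medians of 34313 against 15671 UMIs at E16.5, 24470 against 11239.5 at P0 and 13833 against 6812 at 13w. Among these Acan-bearing cells the members were close at birth and before it. Col2a1 had 11433 CPM at P0 and 9026 at E16.5, a log2 ratio of 0.34. Col11a1 had 4450 and 4152 CPM, Col9a3 1755 and 1629 CPM, and Col9a1 1279 and 1323 CPM. No member was called, the log2 ratios running from -0.05 for Col9a1 to 0.34 for Col2a1, while 5.88% of measured genes were higher and 4.16% lower. Among the cells with less Acan no member was called either. Col2a1 had 303 CPM at P0 and 304 at E16.5 there, and 5.76% of measured genes were higher and 7.1% lower. The split by Acan was chosen after the stage ratios had been seen, and Acan levels followed those of Col27a1 across clusters (r = 0.90 over 59 clusters). Acan itself differed between the stages, with 1768 CPM in the rest at P0 and 454 at E16.5. In the skeletal cluster lowest in Col2a1 it had 521 CPM at P0 and 46.8 at E16.5. The Acan-bearing cells of P0 and E16.5 thus need not be like cells. Their near levels do not show that like cells were unchanged.

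Between birth and the adult the chains parted. Over all kept cells Col2a1 had 17378 CPM at 13w and 12847 at P0, a log2 ratio of 0.44, so it was higher without reaching 2-fold. Col9a1 had 479 CPM at 13w and 1323 at P0, a log2 ratio of -1.46 (-1.48 to -1.45), or 2.76-fold lower. Col11a1 had 1874 CPM at 13w and 4677 at P0, a log2 ratio of -1.32, or 2.5-fold lower. Col11a2 fell just short of the limit, with 504 and 987 CPM and a log2 ratio of -0.97. Col9a3 and Col9a2 lay at -0.71 and -0.59, and Col27a1 at -0.11 with 489 and 529 CPM. Thus 2 of 7 members were lower, against 7.93% of the 8098 measured genes, and none was higher, against 8.46%. The members' median was -0.71, and that of all measured genes was -0.13.

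The same pattern stood in each class of cells. In Col10a1-high cells Col9a1 had 910 CPM at 13w and 2509 at P0 (log2 -1.46), Col11a1 had 3785 and 8857 CPM (log2 -1.23), and Col11a2 had 858 and 1900 CPM (log2 -1.15). These 3 were called lower, against 17% of measured genes, and none higher, against 6.79%. The members' median log2 ratio in Col10a1-high cells was -0.62, and that of all measured genes was already -0.39. Collagen II went the other way in these cells, with Col2a1 at 42915 CPM at 13w and 27381 at P0 (log2 0.65), or 4.29% and 2.74% of their UMIs. In the rest, Col9a1 (443 and 994 CPM, log2 -1.17) and Col11a1 (1711 and 3516 CPM, log2 -1.04) were lower, against 7.64% of measured genes, and none was higher, against 8.59%. Among the Acan-bearing cells Col9a1 had 560 CPM at 13w and 1279 at P0 (log2 -1.19), and Col11a1 had 2136 and 4450 CPM (log2 -1.06). These 2 were again called lower, where 8.92% of measured genes were, and none was higher, where 8.78% were. Under scaling by trimmed means or by medians of ratios, Col11a1 no longer reached 2-fold in Col10a1-high cells (log2 -0.96 and -0.91) or in the rest (-0.88 and -0.87), and Col11a2 no longer did in Col10a1-high cells (-0.88 and -0.83).

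**Figure D2:**
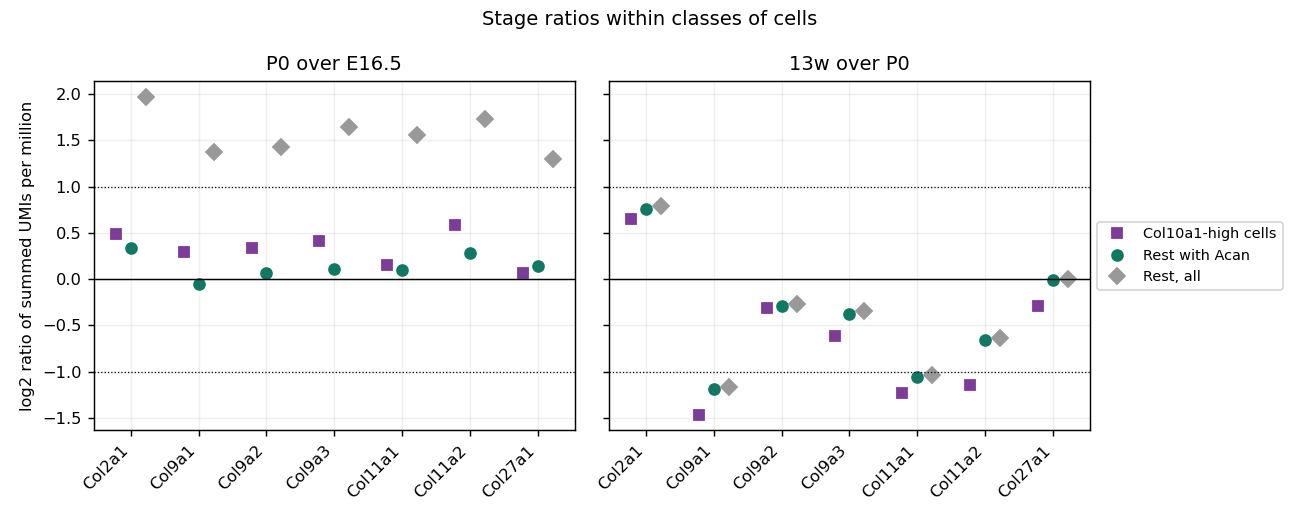
Log2 ratio of each chain for P0 over E16.5 (left) and 13w over P0 (right), in Col10a1-high cells (squares), Acan-bearing cells of the rest (circles) and the whole rest (diamonds); dotted lines mark 2-fold. At left the whole rest lies above 1 for all 7 chains while the other classes lie below it; at right Col9a1 and Col11a1 lie below -1 in all 3 classes.

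Across the whole interval, 13w over E16.5, Col2a1 was the member that gained most. Over all kept cells it had 17378 CPM at 13w and 4147 at E16.5 (log2 2.07), the single member called higher, against 11% of measured genes. None was lower, against 16.3%, and Col27a1 came close to the limit with 489 and 248 CPM (log2 0.98). In Col10a1-high cells Col2a1 was higher at 13w (42915 and 19496 CPM, log2 1.14), against 9.8% of measured genes. Col9a1 (910 and 2046 CPM, log2 -1.17) and Col11a1 (3785 and 7955 CPM, log2 -1.07) were lower, against 19.5%. Both fell short of 2-fold under scaling by trimmed means or medians of ratios, Col9a1 with log2 -0.90 and -0.87 and Col11a1 with -0.80 and -0.77, and Col2a1 fell short with means over cells (0.99). In the rest 5 members were higher, against 11.6%, and none was lower, against 17%; those 5 were Col2a1 (log2 2.76), Col9a2, Col9a3, Col11a2 and Col27a1. With means over cells Col9a2 (log2 0.81) and Col11a2 (0.91) fell short there. Among the Acan-bearing cells alone, Col2a1 (19267 and 9026 CPM, log2 1.09) was higher, against 13.5%, and Col9a1 (560 and 1323 CPM, log2 -1.24) lower, against 15.8%. These comparisons share their libraries with the stage pairs above.

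Ratios between chains are free of the scaling to library totals, and they show the adult shift most plainly. Col11a1 gave 0.408 UMIs per Col2a1 UMI in E16.5 Col10a1-high cells, 0.323 in those of P0 and 0.0882 in those of 13w. In the rest it gave 0.53, 0.399 and 0.113. The adult ratio was thus 3.67-fold lower than at P0 in Col10a1-high cells and 3.54-fold lower in the rest. The 3 collagen IX chains summed gave 0.362, 0.33 and 0.129 UMIs per Col2a1 UMI in Col10a1-high cells and 0.493, 0.356 and 0.142 in the rest. Of 9 chain ratios examined, none differed 2-fold between P0 and E16.5 in any class. At 13w 4 were at least 2-fold lower than at P0 in Col10a1-high cells, namely Col11a1, Col11a2 and collagen IX over Col2a1, and Col9a1 over Col9a2. In the rest 4 were also lower, namely the same 3 over Col2a1 and, in place of Col9a1 over Col9a2, Col11a1 over Col5a1.

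Partner chains of the same protein did not all keep their proportions. In Col10a1-high cells Col9a1 and Col9a2 were near parity before and at birth, at 1.07 Col9a1 UMIs per Col9a2 UMI at E16.5 and 1.04 at P0, and stood at 0.469 at 13w. In the rest the ratio was 1.32, 1.27 and 0.678, and the adult value was 1.87-fold lower than at P0. Col9a3 over Col9a2 moved little, with 1.62, 1.71 and 1.38 in Col10a1-high cells and 1.48, 1.73 and 1.63 in the rest. For collagen XI, Col11a1 over Col11a2 was 6.26, 4.66 and 4.41 in Col10a1-high cells and 5.37, 4.79 and 3.61 in the rest.

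**Figure D3:**
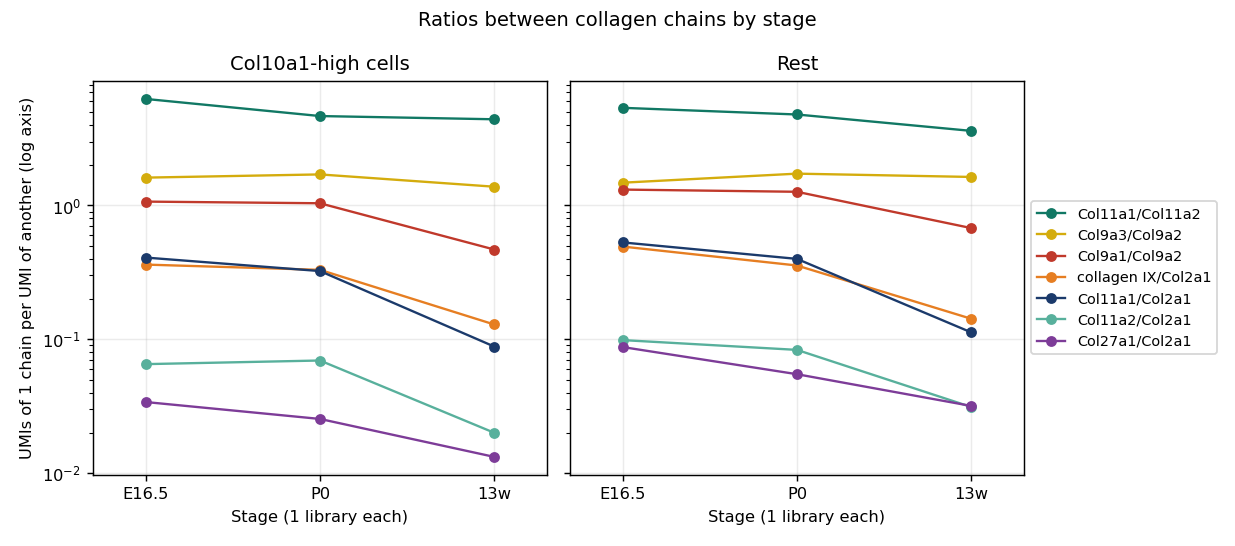
UMIs of one chain per UMI of another on a log axis, at E16.5, P0 and 13w, in Col10a1-high cells (left) and the rest (right); each point is 1 library. The ratios over Col2a1 and Col9a1 over Col9a2 drop at 13w in both panels, while Col9a3 over Col9a2 stays between 1.38 and 1.73.

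Within each library the Col10a1-high cells carried more of most chains than the rest taken as a whole. The 72 cells of the rest just under the limit at 13w nevertheless had more of every chain than the Col10a1-high cells. Col2a1 had 52907 CPM in those 72 cells against 42915, and Col27a1 819 against 567. At E16.5 Col2a1 had 19496 CPM in Col10a1-high cells and 2251 in the rest (log2 3.11), and all 7 members were called higher, against 9.65% of measured genes, with none lower, against 23.3%. At P0 Col2a1 had 27381 and 8814 CPM (log2 1.64), and 6 members were higher, against 5.61%, with none lower, against 10.4%. At 13w Col2a1 had 42915 and 15195 CPM (log2 1.5), and 5 members were higher, against 3.65%, with none lower, against 14.6%. Col27a1 was the exception: it was 3.36-fold higher in Col10a1-high cells at E16.5 (662 and 197 CPM), 1.44-fold at P0 (695 and 483 CPM) and 1.17-fold at 13w (567 and 482 CPM). Col11a2 also missed the limit at 13w, with 858 and 474 CPM, but reached it with means over cells (log2 1.47) and with cells thinned to 3000 UMIs (log2 1.55). Col27a1 at P0 reached it under the same alternatives (log2 1.04 in both). Col9a1 at 13w lost its call at a mitochondrial limit of 5% (log2 0.99), at a Col10a1 limit of 20 (0.87) and without the blood, vessel and muscle clusters (0.998). Col2a1 was the most abundant of all genes in Col10a1-high cells at E16.5 and P0 and ranked 3rd there at 13w. These cells held 51.7%, 46.3% and 19.4% of all Col2a1 UMIs at E16.5, P0 and 13w, but 29.4%, 28.5% and 9.12% of Col27a1 UMIs, beside 11%, 21.7% and 7.87% of all UMIs.

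The contrast was smaller against the Acan-bearing cells. Set against the Acan-bearing cells of the rest alone, Col2a1 was still 2-fold higher in Col10a1-high cells at each stage, with 19496 against 9026 CPM at E16.5, 27381 against 11433 at P0 and 42915 against 19267 at 13w. At E16.5 it was the only member called, against 4.89% of measured genes higher and 10.9% lower. At P0 Col2a1, Col9a2, Col9a3 and Col11a2 were called higher, against 4.74%, and none lower, against 8.05%. At 13w Col2a1 and Col9a2 were, against 3.47%, and none lower, against 12%; Col27a1 there had 567 CPM in Col10a1-high cells and 586 in Acan-bearing cells.

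Along the range of Col10a1 the chains did not climb without limit. At E16.5 Col2a1 had 985 CPM in cells with no Col10a1 UMI, 12669 in cells with 1 to under 10 per 10000, and 23140 in the 43 cells with 100 or more. At P0 Col27a1 had 347 CPM in cells with none, 785 in cells with 10 to under 100, and 424 in the 183 cells with 100 or more, while Col2a1 had 27607 and 26704 CPM in the last 2 bands. At 13w all 7 chains were lower in the 65 cells with 100 or more than in the 218 cells with 10 to under 100. Col9a2 had 1077 and 2158 CPM in those bands, Col9a1 516 and 1008 CPM, and Col2a1 36001 and 44646 CPM. The share of UMIs that Col10a1 itself takes grows along these bands by construction.

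**Figure D4:**
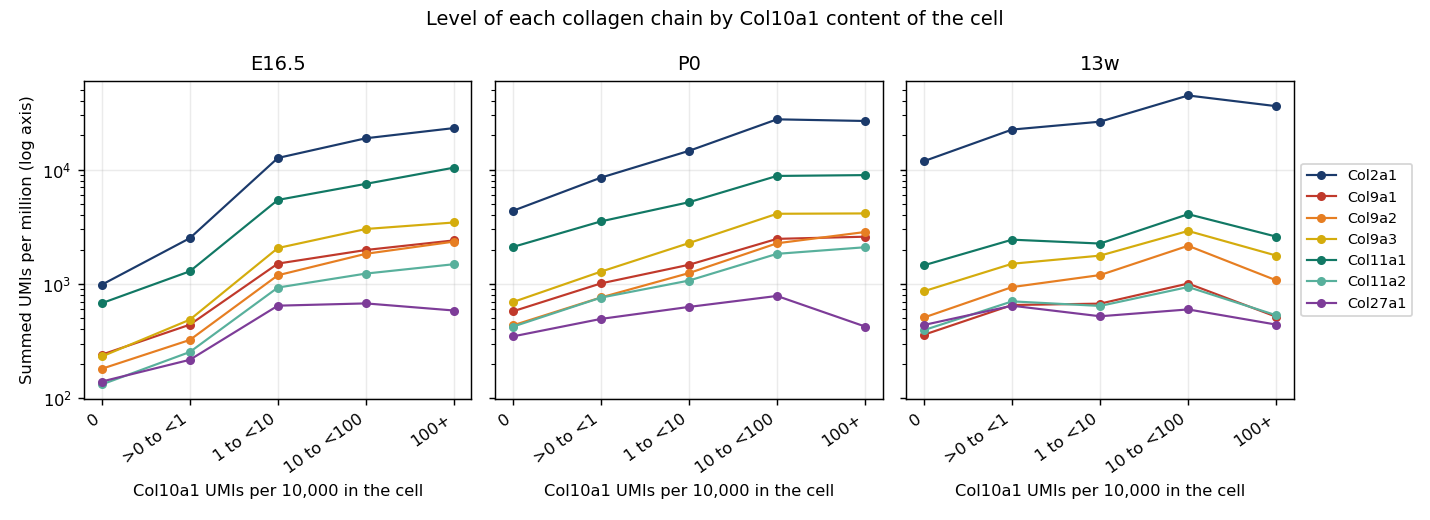
Level of each chain in CPM on a log axis against the cell's Col10a1 UMIs per 10000, in 5 bands, for E16.5, P0 and 13w (left to right); each point sums the cells of 1 band. Col27a1 is lower in the last band than in the one before it in every library, and at 13w so are all other chains.

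Levels per cluster placed the chains among cell groups. Clustering each library apart, with the 7 members left out of the features, gave 17, 13 and 17 clusters without blood, vessel or muscle identity at E16.5, P0 and 13w; they are described by their leading genes. Col2a1 was highest in the cluster led by Col10a1, Lipg and Ibsp at E16.5 (21575 CPM), in that led by Mia, Strbp and Plaat3 at P0 (27985 CPM) and in that led by Col10a1, Pcolce2 and R3hdml at 13w (52458 CPM). It was lowest at 68.9 CPM in the E16.5 cluster led by Ostn and Aspn, at 234 CPM in the P0 cluster led by Lrrc15 and Pdzrn4, and at 336 CPM in the 13w cluster led by Lrrc15 and Acta2. Col27a1 spanned the narrowest range of the 7, 17.9-fold from lowest to highest cluster at E16.5, 17.2-fold at P0 and 11.9-fold at 13w, where Col2a1 spanned 313-fold, 120-fold and 156-fold. Its peak at 13w was not in the Col10a1-led cluster (770 CPM) but in the cluster led by Bglap, the osteocalcin gene, and Chad (991 CPM), which held 0.499% Col10a1-high cells. That adult cluster also had 35951 CPM of Col2a1.

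Within clusters Col11a1 was also set beside Col2a1 and Col11a2. It outnumbered Col2a1 in 9 of 17 clusters at E16.5, which held 2043 cells, in 5 of 13 clusters at P0, with 1628 cells, and in 0 of 17 at 13w. Blood cells, which should lack these genes, had 88.2 CPM of Col2a1 at E16.5, 251 CPM at P0 and 2578 CPM at 13w, so the 3 counts stand on unequal backgrounds and the stages are not ranked by them. In the E16.5 cluster led by Tnmd and Scx, genes of tendon and ligament cells, Col11a1 had 1203 CPM, Col2a1 163 CPM and Col11a2 13.0 CPM. In that led by Igf1 and Fst it had 551 CPM, with 81.9 CPM of Col2a1 and 6.86 CPM of Col11a2. At P0 the cluster led by Lrrc15 and Pdzrn4 had 958 CPM of Col11a1, 234 CPM of Col2a1 and 71.8 CPM of Col11a2. Col11a2 in blood cells was 8.58 CPM at E16.5, 21.2 CPM at P0 and 78.3 CPM at 13w, so no ratio to it is given for these clusters. Collagen V is the known partner of this chain outside cartilage: Col11a1 over Col5a1 was 27.6, 24.3 and 17.8 in Col10a1-high cells at E16.5, P0 and 13w and 3.53, 5.51 and 2.01 in the rest.

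**Figure D5:**
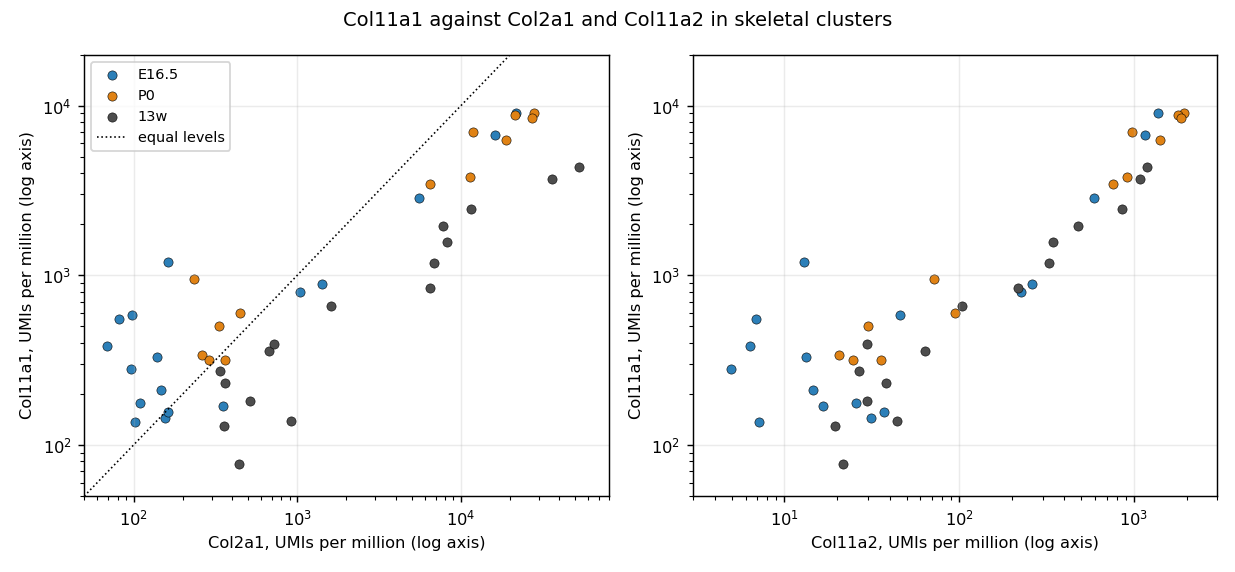
Col11a1 against Col2a1 (left) and against Col11a2 (right) in the skeletal clusters of at least 20 cells, in CPM on log axes, coloured by stage; the dotted line marks equal levels. Blue E16.5 and orange P0 points lie above the line at low Col2a1; Col2a1 in blood cells was 88.2, 251 and 2578 CPM at E16.5, P0 and 13w, so the lower ends of the stages are not comparable.

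Values in blood cells bear on the low levels, and they differed between blood clusters as well as between libraries. At 13w Col2a1 lay between 276 and 4153 CPM over 4 blood clusters, and at E16.5 between 49.0 and 1823 CPM over 3, while P0 had a single blood cluster. The 1823 CPM at E16.5 came from 27 shallow cells led by Hbb-bs, with a median of 1384 UMIs. The other blood clusters there had 49.0 and 119 CPM. No single background could therefore be set at E16.5 or 13w. At 13w 9 of the 17 skeletal clusters, with 4484 cells, were at or under the highest blood cluster and 0 at or under the lowest; at E16.5 these counts were 14 of 17 and 0. The Col2a1 of those clusters is read neither as expression nor as background. At P0 1 of 13 clusters was at or under the blood level, which came from 19 cells. The 38 endothelial cells of P0, also expected to lack these genes, had 6021 CPM of Col2a1 and 1840 of Col11a1. Of them 2 were Col10a1-high, and after thinning to 3000 UMIs 40.5% of 37 had a Col2a1 UMI. The 50 mural cells (of vessel walls) and 14 muscle cells of P0 had 189 and 298 CPM of Col2a1. No single background could thus be set at P0 either, and levels under the endothelial values are read in the same way. Col11a1 ranged over 51.5 to 471 CPM in the adult blood clusters and over 30.2 to 703 CPM in those of E16.5. The 703 CPM again came from the 27 shallow cells, beside 30.2 and 55.1 CPM in the other E16.5 blood clusters. Of the 17 skeletal clusters at each of these stages, 8 at 13w and 11 at E16.5 did not exceed the upper value. The Tnmd-led cluster at E16.5 did, and that led by Igf1 and Fst did not. At P0 all 13 exceeded the 56.6 CPM of Col11a1 in blood, but the cluster led by Lrrc15 and Pdzrn4 was under the endothelial value. The adult blood cells had 0.109 Col11a1 UMIs per Col2a1 UMI, beside 0.108 over the whole library, and 5 of the 405 passed the Col10a1 limit. With each cell thinned to 3000 UMIs, 100% of Col10a1-high cells had a Col2a1 UMI in every library. In the rest the share was 38.4% at E16.5, 67.9% by P0 and 71.5% by 13w, and in blood cells it was 16.0% of 144, 58.8% of 17 and 64.8% of 349. Without thinning the share in the rest was 71.7%, 94.2% and 93.6%, and 170, 124 and 321 kept cells were too shallow to thin. Shares for Col2a1 in the rest at P0 and 13w are therefore not read as expression. For Col27a1 at 13w the shares were 76.6% in Col10a1-high cells and 50.6% in the rest, against 10.6% in blood.

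In thinned cells, co-detection of all 7 chains was the rule among Col10a1-high cells at E16.5 and P0, but not at 13w. After the same thinning, a UMI of all 7 was found in 78.5% of E16.5, 77.6% of P0 and 45.3% of 13w cells, where the shares in the rest were 7.67%, 22.0% and 12.8%. Col9a1 was found in 99.2%, 99.4% and 67.3% of the Col10a1-high cells at E16.5, P0 and 13w, and Col11a2 in 95.5%, 97.5% and 73.0%. The 10th and 90th percentiles of Col9a1 in Col10a1-high cells were 12.2 and 28.7 UMIs per 10000 at E16.5, 15.5 and 36.5 at P0, and 0.424 and 17.5 at 13w. For Col11a1 they were 42.9 and 120 at E16.5, 50.3 and 137 at P0, and 8.31 and 65.5 at 13w.

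Across 59 clusters of at least 20 cells from all libraries, the 7 members followed each other in log level, as a description over clusters that share libraries. Pearson's r was 0.98 between Col9a2 and Col9a3 and 0.97 between Col11a2 and Col9a3. Col27a1 was the least alike, with r between 0.78 and 0.85 to the others. Among 6991 genes the most like Col2a1 were Snorc, a cartilage membrane proteoglycan (r = 0.97), Prkg2, a kinase needed for growth plate chondrocytes to enlarge (r = 0.96), and Zfp385b (r = 0.91). Prkg2 was also among the 3 most alike for every collagen IX and XI chain. Col9a1 was most like Smpd3 (r = 0.95), a sphingomyelinase needed for skeletal growth, and Col11a1 was most like Scube1 (r = 0.90). For Col27a1 they were Acan (r = 0.90), Pth1r, the receptor for Pthlh (r = 0.89), and Cspg4 (r = 0.89).

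Genes that act with these collagens were read from fixed lists, over all kept cells for stages, where the percentages of measured genes called are those given above. Of the fibril partners of cartilage, 12 of 21 measured were higher at P0 than at E16.5 and 1 lower, with a median log2 ratio of 1.07. Chad, chondroadherin, had 77.4 and 4.14 CPM, and Fmod, fibromodulin, 373 and 40.7 CPM. At 13w 13 of 24 were higher than at P0 and 7 lower, with a median log2 ratio of 1.42. Among the lower was Matn1, matrilin 1, with 1.33 CPM at 13w and 165 at P0. All 7 other fibril chains, collagens I, III, V and XXIV, were measured; 5 were higher at 13w than at P0 and none lower, with a median of 1.46, against -0.71 for the 7 cartilage chains. Col1a1 had 10730 CPM at 13w and 3674 at P0, and Col1a2 12862 and 3825 CPM. In Col10a1-high cells none of those chains was called higher than in the rest in any library. Of 32 genes of procollagen folding and processing, 2 were higher and 2 lower at 13w than at P0, with a median log2 ratio of -0.23. Among the lower was P3h1, a prolyl 3-hydroxylase that acts on collagen chains, with 89.2 and 227 CPM. Of 21 SOX and chondrocyte regulators, 2 were higher and 3 lower, with a median of -0.22. Fgfr3, a receptor that restrains chondrocyte growth, was among the lower at 64.3 and 166 CPM. The median of all measured genes was -0.13, and neither list is read as moved as a whole. Of 8 collagen-degrading enzymes 5 were higher and none lower, and Mmp13, a collagenase that cuts collagen II, had 334 CPM at 13w and 16.0 at P0. In Col10a1-high cells against the rest at 13w, Pcolce2, an enhancer of procollagen processing, had 2379 and 223 CPM, Ihh, Indian hedgehog, 600 and 39.1 CPM, and Nfib, a transcription factor, 7.86 and 59.3 CPM. None of 8 degrading enzymes was higher there and 8 were lower. Of collagen receptors, 0 of 5 were higher and 1 lower at 13w than at P0, and Itga10, an integrin chain that binds collagen II, had 61.7 CPM at P0 and 24.5 at E16.5. Of network and fibril-associated collagens, 3 of 7 were higher and 1 lower at 13w than at P0, the last being Col10a1 itself with 633 and 1762 CPM.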

How the data were processed

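The authors deposited UMI counts for each barcode and gene without normalisation. Per the file headers, the matrices were written by Cell Ranger 6.1.2; GRCm39 is the build in the submitters' processing notes. The 7 members, gene lists and limits were chosen with earlier results of these data known. Barcodes under 500 genes or over 10% mitochondrial UMIs were dropped. The kept cells held 100546288 UMIs (E16.5), 94002214 (P0) and 113130140 (13w). Counts were summed per library and class of cells and divided by the total to give CPM. A stage with 1 library allows no test, so p-values are not given. Ratios carry exact conditional binomial intervals, levels exact Poisson intervals and shares Clopper-Pearson intervals; the floor for a count of 0 was 3 counts. The call rule was tried on simulated counts that held counting error only, which cannot show how it fares with differences between animals or pools. Scrublet's automatic limit marked 5, 0 and 2 cells and was taken not to have worked, so doublets were kept and their removal was tried as an alternative. Clusters came from scanpy 1.11.5 with leidenalg 0.10.2 (2000 variable genes, 30 components, 20 neighbours, resolution 1). Blood, vessel and muscle clusters were set apart by fixed markers with a score limit set after the data had been seen. Likeness used Pearson's r of log2 CPM plus an offset of 10 over genes with at least 50 CPM in a cluster. Genes named from lists were at most 3 per list and comparison with the largest called ratios. Scaling alternatives used edgeR 4.0.16 (trimmed means) and DESeq2 1.42.0 (medians of ratios) on the summed counts.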

Additional observations from a re-analysis of the deposited data

Results flagged for a closer look

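With levels scaled to library totals, the 13w over E16.5 ratio of 5 chains ran in opposite directions between Col10a1-high cells and the rest. The difference was not tested because each stage has 1 library. The log2 ratio in Col10a1-high cells minus that in the rest was -1.37 for Col9a1 (-1.17 and 0.20), -1.51 for Col9a3 (-0.20 and 1.3), -1.59 for Col11a1 (-1.07 and 0.52), -1.66 for Col11a2 (-0.57 and 1.09) and -1.52 for Col27a1 (-0.22 and 1.29). Beside these, Acan-bearing cells were 63.0% of the rest at 13w and 14.5% at E16.5. Among Acan-bearing cells of the rest alone, the log2 ratios were -1.24, -0.27, -0.96, -0.38 and 0.13 for the same 5 chains in the same order. Scaling by trimmed means and by medians of ratios adds 0.27 and 0.30 to each 13w over E16.5 log2 ratio in Col10a1-high cells. Col9a3 and Col27a1 fell by less than that there, so their opposite direction does not hold under either scaling. The median log2 ratio of all measured genes in Col10a1-high cells was -0.43.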

How the results depend on the processing

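No paired analysis was possible because each stage has 1 library. Of the counts of members and chain ratios, 192 recomputed values stayed within 1.5 times and 20 moved. Members higher at 13w than at E16.5 over all kept cells, 1 in the report, numbered 4 under scaling by trimmed means, 4 by medians of ratios, 2 without the members and Col10a1 in the totals, 2 at a mitochondrial limit of 5% and 2 with doublets removed. Lower calls over the 3 stage pairs fell to 1 in Col10a1-high cells (5 in the report) and to 1 in the rest (2 in the report) under either scaling. In the rest they also fell to 1 at the 5% limit and to 1 at a Col10a1 limit of 5. The scalings add 0.27 and 0.32 to each log2 ratio of 13w over P0 in Col10a1-high cells and 0.16 and 0.17 in the rest. The single higher call in Col10a1-high cells became 0 with means over cells. At a fold of 1.5, the counts were 5 lower at 13w than at P0, 4 higher at 13w than at E16.5, 2 higher in Col10a1-high cells, and 14 and 16 chain ratios changed over the stage pairs in all cells and the rest (9 each in the report). With the rest limited to Acan-bearing cells, its 12 higher calls became 1, and members higher in Col10a1-high cells became 1 at E16.5 and 2 at 13w. Col9a1 then reversed for P0 over E16.5 (-0.049). For 13w over E16.5 Col9a1 (-1.24), Col9a2 (-0.22), Col9a3 (-0.27), Col11a1 (-0.96) and Col11a2 (-0.38) did. Col27a1 did for Col10a1-high cells over the rest at 13w (-0.047). For stages this alternative was chosen after seeing the data. The genes named as most like the members were kept in 13 of 21 cases at a coarser and 16 at a finer clustering. Causes were not tested. Depth limits chiefly Col9a1, Col11a2 and Col27a1 in single cells. Col2a1 in blood cells limits its low levels at E16.5 and 13w, and Col2a1 in endothelial cells limits those at P0.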
